A study of Mus musculus with 18 samples.

Results

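The 38 genes described here encode the machinery that brings new proteins to the endoplasmic reticulum (ER), moves them across or into its membrane, and packs them into vesicles for the Golgi. They were chosen by name, as the signal recognition particle (SRP) and its receptor (7 genes), the translocon with its partners (10), signal peptidase (5), the COPII coat with its GTPase (11) and ER cargo receptors (5). All 38 were found among the 20683 genes of the count table. The study used erythroblasts, the dividing precursors of red blood cells, from fetal livers of mice with the genotype Trp53 -/- and the strain FVB/n x C57BL/6. Every group shared this genotype and strain. Cultures were kept in StemPro with stem cell factor, erythropoietin at 0.5 U/ml and dexamethasone at 1 nM, and then either received tunicamycin (2.5 µg/ml, 1.5 h) or stayed untreated. Tunicamycin blocks the first step of N-glycan synthesis, so that unfolded glycoproteins collect in the ER, and the series design names it as the agent used to have eIF2, an initiation factor, phosphorylated. For both treatments there were 3 libraries of total RNA, 3 of ribosome footprints after cycloheximide (100 µg/ml for 5 min), which freezes ribosomes where they are, and 3 of footprints after harringtonine (2 µg/ml), which holds ribosomes at start sites. These 18 libraries form 6 groups of 3. No wild-type cells enter these comparisons, and the labels do not say whether the 3 libraries of a group came from separate cultures or animals, so every p-value rests on library-to-library spread, which may be technical.

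A protein bound for secretion or for a membrane is recognised by SRP as its signal sequence leaves the ribosome. SRP docks at its receptor on the ER, the ribosome is handed to the Sec61 channel, and signal peptidase cuts the signal off during translocation. Folded cargo is then gathered by receptors and by the inner COPII layer (Sec23 and Sec24), which the GTPase Sar1 recruits, while the outer layer (Sec13 and Sec31) bends the membrane. In the unfolded protein response, the sensor PERK lowers overall initiation through eIF2, while IRE1 and ATF6 raise genes of ER folding and transport. Red-cell precursors make large amounts of membrane proteins such as glycophorin and band 3, and loss of human SEC23B causes a congenital dyserythropoietic anaemia.

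RNA libraries held 12.9 to 49.0 M (mega) reads, and cycloheximide libraries 4.53 to 6.65 M footprints in coding sequence (CDS). Trp53 itself was covered by 1426 to 6060 RNA reads a library, and a sum over the gene cannot tell which of its exons are missing, so the genotype label was not checked. Levels are given as CPM, reads scaled to the library's total of RNA reads or of CDS footprints. The 7 erythroid markers used here (among them Tfrc, Gata1 and Klf1) summed to 3086 to 3217 CPM in untreated RNA libraries and 3186 to 3323 under tunicamycin. All 5 markers of endothelium and stroma, all 6 of macrophages and all 5 of neutrophils and monocytes lay under 1 CPM, as did 4 of 5 for hepatocytes. Mast cell markers summed to 105 to 169 CPM untreated and 107 to 172 under tunicamycin, and megakaryocyte markers to 113 to 119 and 94.4 to 104. The highest marker of each list was Ms4a2 (139 CPM) for mast cells and Gp5 (100 CPM) for megakaryocytes, and 2 of 5 in each lay under 1 CPM. The part of such cells in the results was not tested. Of the stress references, CDS footprints of Atf4, the transcription factor translated when eIF2 is phosphorylated, rose by 2.18 ± 0.11 on the log2 scale (edgeR adjusted p = 2.33e-08), and RNA of the ER chaperone gene Hspa5 rose by 0.78 ± 0.08 (adjusted p = 0.0041). RNA of Atf4 (0.16 ± 0.07, edgeR adjusted p = 0.401) and footprints of Hspa5 (0.29 ± 0.09, 0.108) did not pass. Ddit3 and Herpud1 rose in RNA (0.85 and 1.36) and in footprints (2.45 and 0.72).

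In total RNA, 0 of the 38 genes passed (edgeR quasi-likelihood test, Benjamini-Hochberg adjusted p under 0.05), against 0.15% of the 10643 genes tested. The count at an unadjusted p under 0.05 was 2 of 38, against 12.4% of all genes tested, and DESeq2 called 0. The median log2 change was 0.01, with 24 genes above 0 and 14 below, beside a median of 0.00 over all genes. The 95% intervals of all 38 lay between -0.25 and 0.37. These are bulk samples, in which fewer cells of a type and less RNA per cell cannot be told apart, and the scaling (TMM) sets the typical gene near 0, so each change is relative to it.

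Sec63, the J-domain partner that recruits BiP to the translocon, had the smallest p in RNA. It stood at 67.0, 67.4 and 63.4 CPM in untreated libraries 1 to 3 and at 78.2, 75.2 and 78.3 under tunicamycin. The treated libraries were all above the untreated ones, with a log2 difference of 0.23 ± 0.06 (SE) and an edgeR adjusted p of 0.225, which did not pass. Srp72, Lman1, Srp68 and Sec31a also had all treated RNA libraries above the untreated ones, and Sar1a had them below. The share of all genes with such an order in RNA was not worked out. RNA libraries of the same number deviated together. With the number as a block Sec63 passed (edgeR adjusted p = 0.0299) as the only one of the 38, beside 410 of the 10643 genes tested. The next smallest p belonged to Srp72, an SRP protein that binds the SRP RNA, at 0.15 ± 0.06 (adjusted p = 0.349), and to Lman1, a cargo receptor for glycoproteins, at 0.11 ± 0.06 (0.473).

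**Figure D1:**
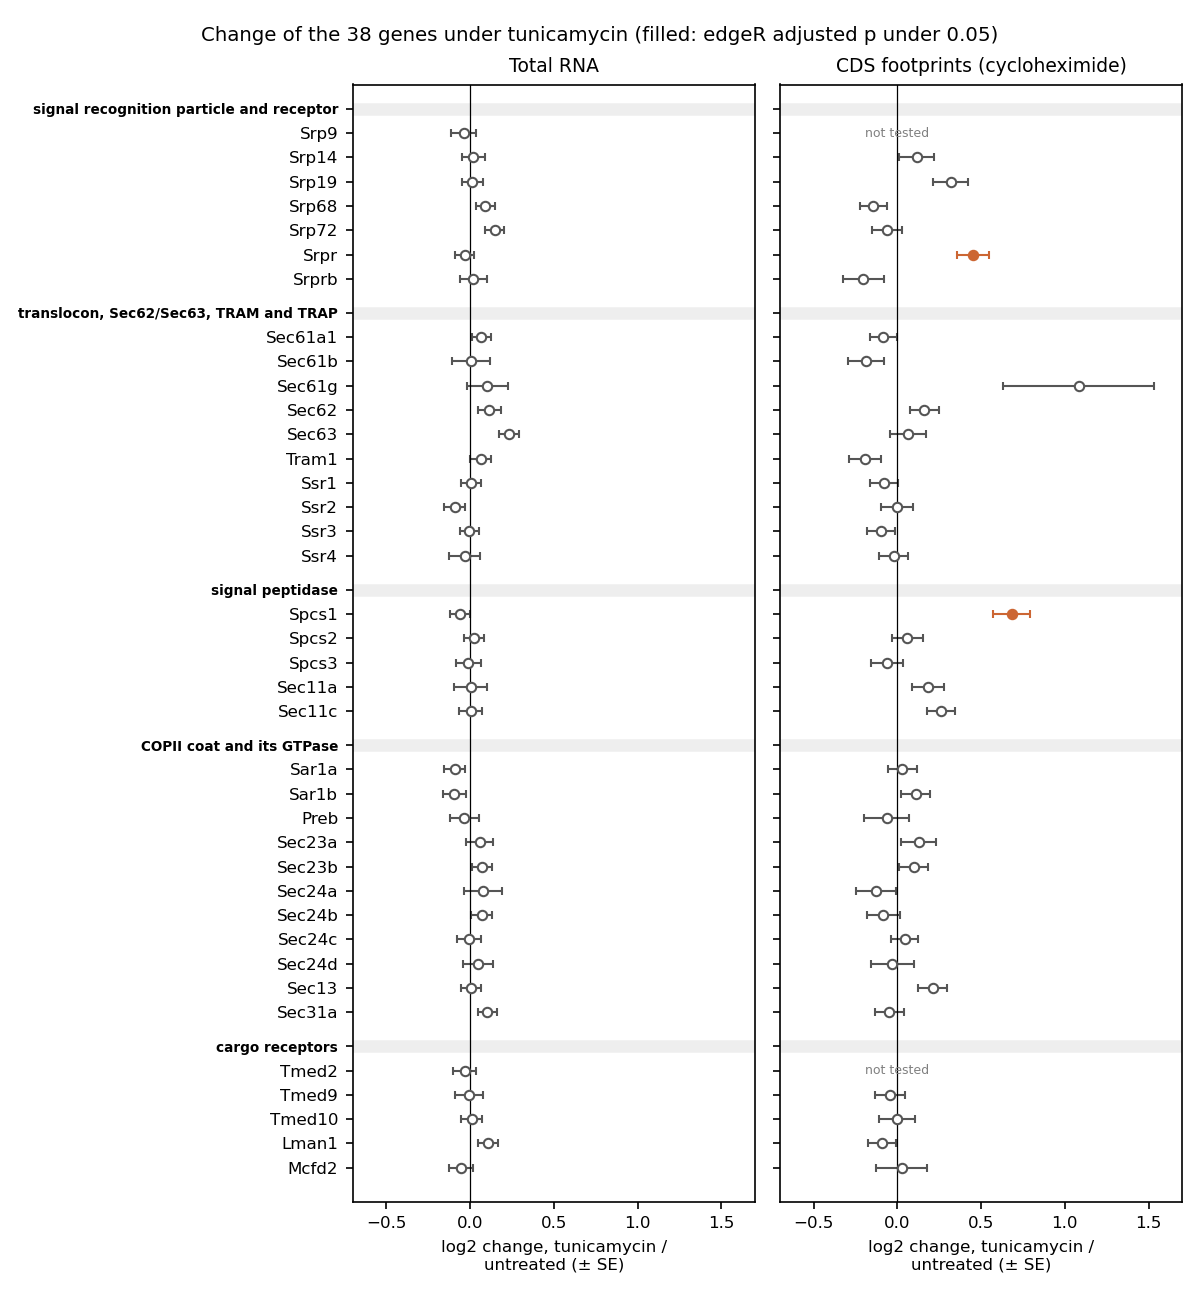
Log2 change (tunicamycin over untreated, ± SE, 3 libraries a group) of the 38 genes by role, in total RNA on the left and CDS footprints on the right; filled points have an edgeR adjusted p under 0.05. Only Spcs1 (0.68) and Srpr (0.45) are filled, both in footprints, and the RNA values lie between -0.09 and 0.23.

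Among CDS footprints, 36 of the 38 genes had enough reads to test, 2 rose and 0 fell. Over all 9265 genes tested, 1.78% rose and 0.799% fell. Spcs1 and Srpr were the genes that rose. Of the 36, 6 had an unadjusted p under 0.05, a share near that of all genes (16.6%). DESeq2 called the same 2 genes, beside 242 of the 9265 over all. In CPM, all treated libraries stood above all untreated ones in 8 of the 36 (10.1% of all genes tested) and below them in 2, Srp68 and Sec61a1 (11.8%). The median of the 36 was -0.00 and that of all genes was 0.00. Translational efficiency (CDS footprints over RNA) was tested in a model over 12 libraries, where Spcs1 and Srpr rose and 0 fell among 36 genes, against 1.02% and 0.38% of 9218 genes. Of those 36, 6 had an unadjusted p under 0.05 (15.5% of all genes did). DESeq2 called 1 further gene, Srp68, as lower (it was at -0.23 ± 0.09 with an edgeR adjusted p of 0.203). Over all genes DESeq2 called 392 of 9218 in efficiency.

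Spcs1 encodes a small subunit of signal peptidase. Its RNA was 170, 181 and 175 CPM in untreated libraries and 165, 172 and 165 under tunicamycin. Its CDS footprints were 87.3, 82.7 and 106 CPM untreated and 131, 138 and 170 under tunicamycin. The RNA values of the groups overlapped, and the lowest treated footprint value stood above the highest untreated one. The footprints rose 1.60-fold (log2 0.68 ± 0.11 SE, edgeR adjusted p = 0.0048), while the RNA difference was -0.06 ± 0.06 (adjusted p = 0.725). Footprints per RNA read (libraries of the same number) went from 0.512, 0.458 and 0.605 to 0.793, 0.800 and 1.03, and efficiency rose by 0.74 ± 0.13 (adjusted p = 0.0149). The efficiency call was lost without untreated RNA library 2 (edgeR adjusted p = 0.0509) and without tunicamycin RNA library 3 (0.0502). The footprint call was kept without each library in turn.

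Srpr encodes the alpha subunit of the SRP receptor, the GTPase that meets SRP at the ER. Its RNA was 122, 126 and 125 CPM untreated and 115, 122 and 126 under tunicamycin. Its CDS footprints were 53.5, 49.6 and 52.2 CPM untreated and 65.7, 72.2 and 72.9 under tunicamycin. The footprint groups did not overlap and the RNA groups did. Footprints rose 1.37-fold (log2 0.45 ± 0.10, edgeR adjusted p = 0.0236) with an RNA difference of -0.03 ± 0.06 (0.873), and efficiency rose by 0.49 ± 0.10 (0.027). The footprint call was lost without untreated library 2 or 3, or without tunicamycin library 2 or 3, where the edgeR adjusted p reached 0.129. The efficiency call was lost when any 1 of 8 libraries was left out (RNA untreated 2 and 3, RNA tunicamycin 1, 2 and 3, and cycloheximide untreated 2, tunicamycin 2 and tunicamycin 3), with adjusted p from 0.0506 to 0.0849. Srprb, the membrane-anchored beta subunit, was at -0.20 ± 0.12 in footprints (adjusted p = 0.437), on the other side of 0 from its partner.

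**Figure D2:**
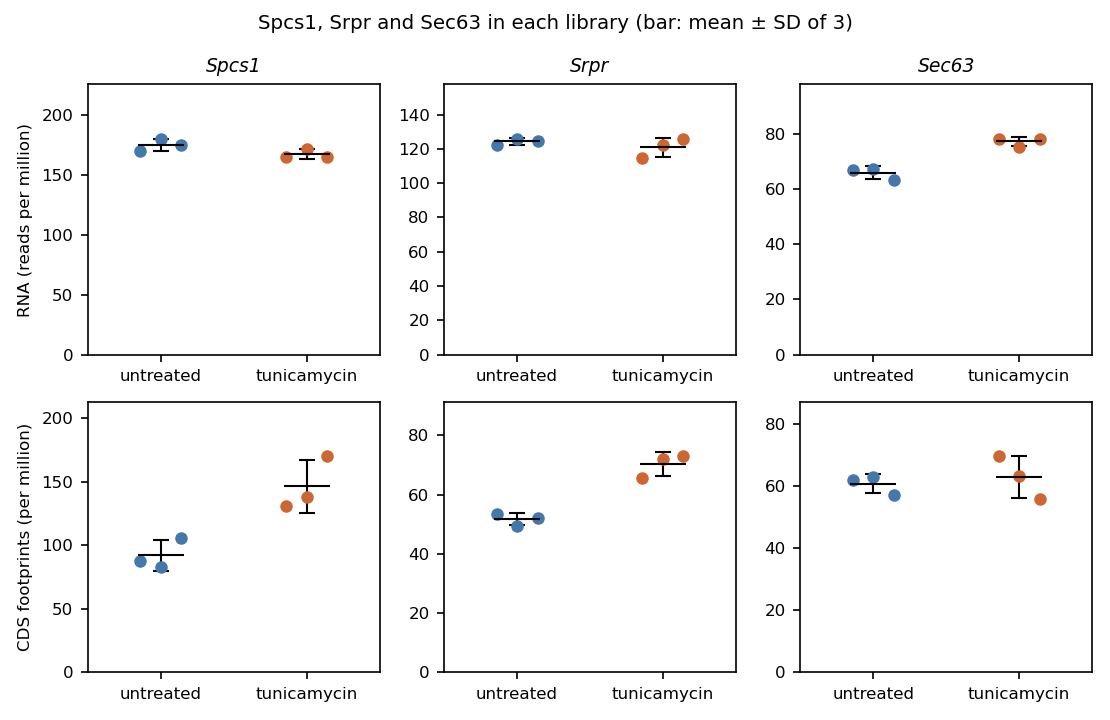
RNA CPM (top) and CDS footprint CPM (bottom) of Spcs1, Srpr and Sec63 in each library; points are libraries and bars give the mean ± SD of 3. The treated footprint points of Spcs1 (131 to 170) and Srpr (65.7 to 72.9) lie above all untreated ones, and for Sec63 the treated RNA points (75.2 to 78.3) do.

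Of the 38 genes, 3 overlap a protein-coding neighbour, and both genes that rose are among them. In RefSeq (GRCm38.p6), Spcs1 spans chr14:30999826-31001666 on the minus strand, and its first 470 bp, chr14:31001197-31001666, also belong to Glt8d1, a glycosyltransferase-domain gene on the plus strand. Srpr spans chr9:35211203-35217003 and shares its last 39 bp with Fam118b on the opposite strand. The third, Spcs2, shares 11123 bp with Xrra1 on the opposite strand and did not pass in footprints. The sources used here do not say whether counting used strand. Glt8d1 had 9.11 to 13.3 footprints (CPM) untreated and 11.0 to 13.8 under tunicamycin, with a difference of 0.18 ± 0.18 (edgeR adjusted p = 0.674). Fam118b was at 0.11 ± 0.11 (0.668). The part of these overlaps in the footprint counts was not tested.

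Of the SRP proteins, Srp14 and Srp9 form the domain that slows elongation, Srp19 helps the particle assemble, and Srp68 and Srp72 form a pair on the SRP RNA. Without a block none of the 5 passed with edgeR in RNA, footprints or efficiency. At an unadjusted p under 0.05 were Srp72 in RNA, Srp19 in footprints, and Srp19 and Srp68 in efficiency. Srp19 had 54.7, 49.2 and 46.1 footprints (CPM) untreated and 62.5, 63.1 and 60.4 under tunicamycin. These groups did not overlap, and the difference of 0.32 ± 0.10 did not pass (edgeR adjusted p = 0.126). With the library number as a block Srp19 passed in footprints (edgeR adjusted p = 0.0291), beside 885 of the 9265 genes tested. Srp68 had 306, 317 and 319 footprints (CPM) untreated and 272, 285 and 289 under tunicamycin, groups that did not overlap, with a difference of -0.14 ± 0.08 (0.397). Srp72 was at -0.06 ± 0.09 and Srp14 at 0.12 ± 0.11. Srp9 could not be tested in footprints: it had 2, 2 and 4 CDS footprints untreated and 6, 6 and 3 under tunicamycin, although its RNA held at least 1615 reads in each library. Its leader held 32 footprints untreated and 30 under tunicamycin, more than its CDS.

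The Sec61 channel is built from Sec61a1, the pore, and the small subunits Sec61b and Sec61g. Without a block none of the 10 translocon genes passed with edgeR in RNA, footprints or efficiency. At an unadjusted p under 0.05 there were 1, 1 and 1, and DESeq2 called 0. Sec61a1 had 202, 204 and 202 footprints (CPM) untreated and 189, 191 and 189 under tunicamycin, groups that did not overlap, with a difference of -0.08 ± 0.08 that did not pass (edgeR adjusted p = 0.675). Sec61b was at -0.19 ± 0.11 (0.411). Sec61g had 4 to 15 CDS footprints in untreated libraries and 7 to 24 under tunicamycin, and the same or nearly the same number in its leader (5 to 14 and 7 to 24). Its difference of 1.08 ± 0.45 (0.240) did not pass, and leader and CDS counts of this gene cannot be told apart. Its RNA held 542 to 1886 reads a library. RefSeq lists pseudogenes under the names of 4 of the 38 genes, 2 for Sec61g and 1 each for Tmed2, Tmed10 and Spcs2, of which Spcs2 had 4108 CDS footprints over the 6 libraries. No pseudogene listed there is named after Srp9, but the pseudogene Gm17968 overlaps Srp9 by 784 bp. The part of pseudogenes in these counts was not tested.

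Sec62, which works with Sec63 on small or slowly engaging substrates, had a footprint difference of 0.16 ± 0.09 (edgeR adjusted p = 0.366). Sec63 itself was at 0.06 ± 0.11 in footprints (0.835), with 61.8, 63.0 and 57.2 CPM untreated and 69.5, 63.3 and 55.8 under tunicamycin, so the order seen in its RNA was not seen in its footprints. Tram1, a membrane protein beside the channel, had 193, 222 and 237 footprints (CPM) untreated and 175, 207 and 182 under tunicamycin (-0.19 ± 0.10, 0.326). The translocon-associated protein complex (TRAP) helps some signal sequences insert. Its 4 subunits Ssr1, Ssr2, Ssr3 and Ssr4 lay between -0.10 and -0.00 in footprints and between -0.09 and 0.01 in RNA.

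Signal peptidase has catalytic subunits, Sec11a and Sec11c, and the accessory subunits Spcs1, Spcs2 and Spcs3. Apart from Spcs1, none of these passed in footprints with edgeR without a block or with DESeq2, and 4 of the 5 lay above 0. At an unadjusted p under 0.05 there were 2, Spcs1 and Sec11c. Sec11c had 168, 179 and 178 footprints (CPM) untreated and 198, 212 and 213 under tunicamycin, groups that did not overlap. The difference of 0.26 ± 0.08 did not pass (edgeR adjusted p = 0.114). With the library number as a block Sec11c passed (edgeR adjusted p = 0.0182), beside 885 of the 9265 genes tested. Sec11a was at 0.18 ± 0.09 (0.344), Spcs2 at 0.06 ± 0.09 (0.814) and Spcs3 at -0.06 ± 0.09 (0.807). The 5 genes together took 0.104% ± 0.010 of CDS footprints untreated and 0.116% ± 0.007 under tunicamycin (SD, n = 3). Untreated library 3 (0.114%) lay above tunicamycin library 1 (0.108%). Their RNA took 0.103% ± 0.005 and 0.102% ± 0.004.

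COPII genes stayed close to 0. All 11 were tested, and 0 passed with edgeR in RNA, footprints or efficiency. At an unadjusted p under 0.05 the counts were 0, 1 and 0, and DESeq2 called 0 in each. Footprint differences ran from -0.12 (Sec24a) to 0.21 (Sec13), and the 95% intervals lay between -0.38 and 0.40. Sec13, an outer coat protein that is also part of the nuclear pore, had 180, 156 and 172 footprints (CPM) untreated and 194, 191 and 198 under tunicamycin. Those groups did not overlap, and the edgeR adjusted p was 0.237. Sec31a, its partner in the outer coat, was at -0.05 ± 0.09, and Preb (Sec12), the exchange factor that loads Sar1 with GTP, at -0.06 ± 0.14. The 11 genes took 0.166% ± 0.001 of CDS footprints untreated and 0.170% ± 0.001 under tunicamycin.

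Among the 5 cargo receptors 0 passed with edgeR or DESeq2 in RNA, footprints or efficiency, and 0 had an unadjusted p under 0.05. Tmed9 and Tmed10, p24 proteins that cycle between ER and Golgi, were at -0.04 ± 0.09 and -0.00 ± 0.11 in footprints. Lman1 and Mcfd2 form the receptor for coagulation factors V and VIII, and were at -0.09 ± 0.08 and 0.03 ± 0.15. Tmed2, another p24 protein, could not be tested: it had 0 to 3 CDS footprints in each library, although its RNA held 1082 to 4670 reads. Summed over all 38 genes, the share of CDS footprints was 0.625% ± 0.026 untreated and 0.627% ± 0.011 under tunicamycin, and that of RNA reads 0.572% ± 0.015 and 0.574% ± 0.005 (SD, n = 3).

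Ribosomes on the 5′ leaders of these mRNAs were more frequent, relative to the CDS, after tunicamycin. Of 23 genes with enough leader footprints, 19 rose in the ratio of leader to CDS footprints and 0 fell (edgeR, interaction of feature and treatment). Most genes did so: of the 4693 tested, 64.4% rose and 0.0639% fell. The median change was 1.07 on the log2 scale for the 23 and 0.90 for all genes. Summed over the 38 genes, leader footprints were 2.26%, 1.52% and 2.40% of leader plus CDS footprints in untreated libraries and 3.76%, 3.76% and 4.64% under tunicamycin. Over all genes the share went from 4.93% ± 0.74 to 8.80% ± 1.46 (SD, n = 3). Tunicamycin library 3 had the highest share over all genes, 10.5%. Without it 12 genes of the set rose, beside 1906 of the 4898 tested over all genes. The calls lost were those of Ssr1, Ssr2, Ssr4, Sec62, Spcs3, Sec24a and Mcfd2, with edgeR adjusted p up to 0.200.

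In the fit over all libraries Sec61b changed most, from leader shares of 1.72%, 1.08% and 1.32% to 6.55%, 5.75% and 4.25%. Its ratio rose by 2.04 ± 0.38 (edgeR adjusted p = 0.0012), on 18 leader footprints untreated and 49 under tunicamycin. Preb rose by 1.92 ± 0.44, from 3.44%, 1.42% and 1.12% to 5.73%, 5.96% and 8.78%. Without untreated library 1, Preb (2.51) and Sec62 (2.27) stood above Sec61b (2.23). Leader footprints in untreated cells were few for these genes, 17 for Preb and 29 for Sec62. With a minimum of 50 reads per group, 14 genes of the set were tested and 13 rose, beside 2075 of the 3089 tested over all genes. Sec61b, Preb, Sec23a, Sec62, Ssr4 and Mcfd2 were not among those tested, so their rises rest on the lower minimum. In the translocon, Sec62 (1.49 ± 0.48), Tram1 (1.16 ± 0.32), Sec61a1 (1.12 ± 0.30), Ssr2 (1.07 ± 0.32), Ssr4 (0.99 ± 0.38) and Ssr1 (0.70 ± 0.29) rose as well.

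All 8 COPII genes tested rose, beside 64.4% of all genes tested. Besides Preb these were Sec23a (1.63 ± 0.36), Sec31a (1.46 ± 0.34), Sec24c (1.13 ± 0.32), Sec24a (1.09 ± 0.34), Sar1a (1.06 ± 0.30), Sar1b (0.98 ± 0.27) and Sec23b (0.84 ± 0.25). Of these, Sar1b had the highest leader share, 9.28% ± 2.82 untreated and 16.6% ± 1.64 under tunicamycin (SD, n = 3). Srp14 (0.96 ± 0.26), Sec11a (1.16 ± 0.24), Spcs3 (0.93 ± 0.35) and Mcfd2 (1.07 ± 0.35) complete the 19.

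The exceptions were Spcs2 (0.45 ± 0.40), Srp19 (0.23 ± 0.30) and Sec11c (-0.11 ± 0.44), none of which passed. Sec61g (-0.05 ± 0.40) did not pass either, but its test cannot decide whether leader ribosomes changed. Its leader and CDS counts were the same or nearly the same in each library and cannot be told apart. It remains in the count of genes tested. Calls also depended on other libraries: Sec24a, Spcs3, Ssr1 and Ssr4 were lost without untreated library 1, Mcfd2, Sec62, Spcs3, Ssr1 and Ssr4 without untreated library 2, Ssr4 without untreated library 3, Ssr1 without tunicamycin library 1, and Spcs3 and Ssr1 without tunicamycin library 2. Srp19 already had a leader share of 17.5%, 10.9% and 24.9% untreated and stood at 22.1%, 17.8% and 19.8% under tunicamycin, with overlap. The genes whose CDS footprints rose were not tested here: Spcs1 had 2 leader footprints untreated and 3 under tunicamycin beside 1798 and 2140 CDS footprints. Srpr had 25 and 26 leader footprints, and shares of 3.78%, 1.23% and 2.05% untreated and 2.40%, 2.10% and 2.88% under tunicamycin, which overlapped.

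**Figure D3:**
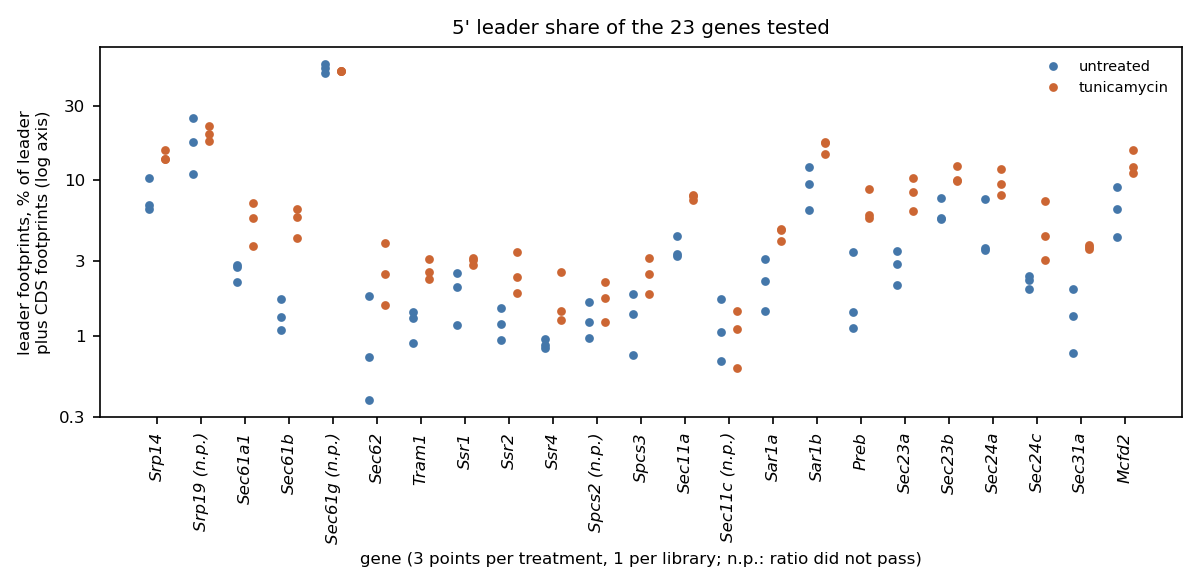
Share of 5′ leader footprints in leader plus CDS footprints (percent, log axis) of the 23 genes tested, 1 point per library; genes marked n.p. did not pass in the ratio test. Sec61b moved from 1.08% to 1.72% untreated to 4.25% to 6.55% under tunicamycin, and the groups of Srp19 and Sec11c overlap.

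Past the stop codon, 18 of the 38 genes had enough 3′ UTR footprints to test against the CDS, and 0 passed (edgeR; 3 at an unadjusted p under 0.05, beside 9.48% of all genes, and 0 with limma voom), against 0.447% of 2015 genes. The smallest p belonged to Tram1 (0.91 ± 0.26, adjusted p = 0.184), Ssr3 (1.23 ± 0.39, 0.224) and Sec11a (-0.43 ± 0.18, 0.467).

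Harringtonine positions, each a single genome position kept by the authors, were assigned by them to 23 of the 38 genes and made 36 sites once positions within 10 nt were merged. Of these, 35 lay inside the gene's RefSeq span, and that of Srprb lay 12 nt before its start. The other 15 genes had none. Of 30 sites with enough reads, 0 passed (edgeR), as over all 5123 sites tested (0.0%), and DESeq2 called 1 site over all genes and 0 of these. At an unadjusted p under 0.05 there were 176 sites over all genes and 0 of the 30. Columns of the same number were correlated in their deviations (r = 0.525, 0.174 and 0.123), but so were untreated 2 and tunicamycin 3 (0.426). With the number as a block 5 sites passed over all genes and 0 of these. The highest site lay in Sec11a at chr7:80947465 on the minus strand, 85 nt past the RefSeq gene start, with 368, 541 and 444 reads untreated and 374, 480 and 549 under tunicamycin. Sar1b at chr11:51777491 followed, with 145, 168 and 147 reads and 145, 168 and 205. The groups overlapped at both.

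The smallest p among the 30 belonged to Sec24c at chr14:20674360, with 24, 21 and 21 reads untreated and 66, 33 and 35 under tunicamycin (0.72 ± 0.34, edgeR adjusted p = 1.0), to Sec62 at chr3:30793345 (0.70 ± 0.33, 1.0) and to Tram1 at chr1:13589874 (0.50 ± 0.31, 1.0). At Sec24c the groups did not overlap, yet all sites together held more reads under tunicamycin, which the scaling takes out. At Srpr, the main site at chr9:35211279 had 81, 98 and 108 reads untreated and 146, 122 and 76 under tunicamycin (-0.04 ± 0.30), so the groups overlapped.

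Spcs1 had 2 sites on the minus strand, opposite to Glt8d1. The one nearer to the gene start, chr14:31001269, had 12, 17 and 15 reads untreated and 15, 24 and 20 under tunicamycin (0.14 ± 0.40, edgeR adjusted p = 1.0). The other, chr14:31001243, had 0, 5 and 0 reads untreated and 4, 13 and 21 under tunicamycin. It had too few reads for the filter. With no filter its difference was 2.54 ± 0.97 (adjusted p = 0.968), and it was singled out after its values were seen.

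RefSeq sequence (GRCm38.p6) around gene starts was read for 325 of the 9025 kept positions. These lay inside a window, far enough from its ends for every offset to be read. They are near or before an annotated gene start and may not stand for the other positions. An ATG began 12 or 13 nt downstream of the position in 85 of them (26.2%), and no other offset from -40 to 35 nt reached more than 10. The member positions with at least 30 bases of window left, in Ssr3 and Srprb, are given from the position onward. The ATG is in capitals to show the distance between position and start codon. Sec24c, Srp72, Tmed9 and Ssr4 also had a position inside a window, with less sequence left, and are not shown. For Ssr3 the stretch is chr3:65392521-65392550 and for Srprb chr9:103202048-103202077, both on the minus strand.
Ssr3: cttcagctcggccATGgctcccaaaggcgg
Srprb: agactacacacctctttcATGgcttcggcg
In Ssr3 the ATG began 13 nt after the position, which held 23, 15 and 10 reads untreated and 22, 22 and 18 under tunicamycin. In Srprb it began 18 nt after, at a position with 5, 4 and 2 reads untreated and 16, 5 and 0 under tunicamycin.

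Footprints per RNA read differed widely among the genes before any treatment. The ratio of CDS footprint CPM to RNA CPM had a median of 1.21 over the 36 genes with at least 60 footprints and 600 RNA reads, and of 0.880 over 8851 genes under the same minimum. This ratio still depends on how much of each transcript is coding, and it is a description with no test. COPII genes had a median of 1.79, and 10 of 11 stood above the median of all genes. Sec24a (2.53), Sec23b (2.29) and Sec11a (2.79) stood above the 90th percentile of all genes, 2.01. Sec61g (0.0381) and Tmed10 (0.179) stood below the 10th percentile of all genes, 0.267, and Srp19 (0.329), Sec61b (0.346) and Srpr (0.417) between it and the median. Srp9 and Tmed2 had 0.003 and 0.002.

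**Figure D4:**
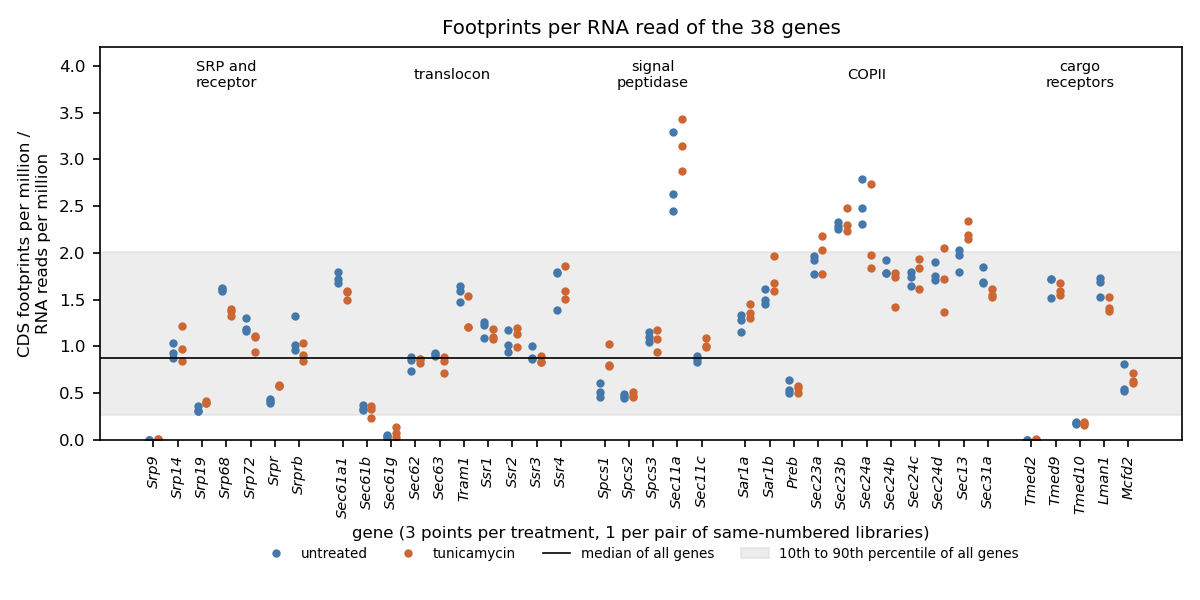
CDS footprint CPM divided by RNA CPM for the 38 genes, 1 point per pair of same-numbered libraries; the line is the median of all genes (0.880) and the band their 10th to 90th percentile. COPII genes lie mostly above the line, Sec11a is highest, and Spcs1 and Srpr move up under tunicamycin from below the line.

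Several COPII and peptidase subunits exist as paralogs, and their shares of the family's reads were set side by side. These shares were not divided by length, so they do not rank protein output. Sec23b took 77.6% ± 0.6 of the RNA reads of the Sec23 pair and 80.8% ± 0.8 of its CDS footprints in untreated cells (SD, n = 3). Sec24c took 64.9% ± 2.7 of RNA reads and 61.5% ± 2.1 of footprints of the 4 Sec24 genes, and Sec24d, the smallest, took 8.44% and 8.28%. Sar1a took 66.6% and 62.3% of the Sar1 pair. Sec11a took 37.9% ± 2.6 of the RNA reads of the Sec11 pair but 66.2% ± 2.0 of the footprints, and Sec11a was the smaller part in all 6 RNA libraries and the larger part in all 6 cycloheximide libraries. Sar1b, whose loss in humans blocks chylomicron export from the gut, held the remaining 37.7% of Sar1 footprints.

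Under tunicamycin the shares can be given only as a description: the exact permutation test, 2-sided, run on 7 footprint shares, cannot go below p = 0.1 with 3 against 3 libraries. Sec24c differed by 2.12 percentage points, from 59.3%, 62.1% and 63.3% to 62.9%, 61.9% and 66.2% (exact p = 0.5, adjusted p = 0.7), with overlap. Without untreated library 1 this was 0.98 and without tunicamycin library 3 0.87, while Sec11a differed by -1.17 points over all libraries and by -2.03 and -1.89 without the same ones. Sec23b was at 80.5% and Sec11a at 65.0% in treated cells.

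**Figure D5:**
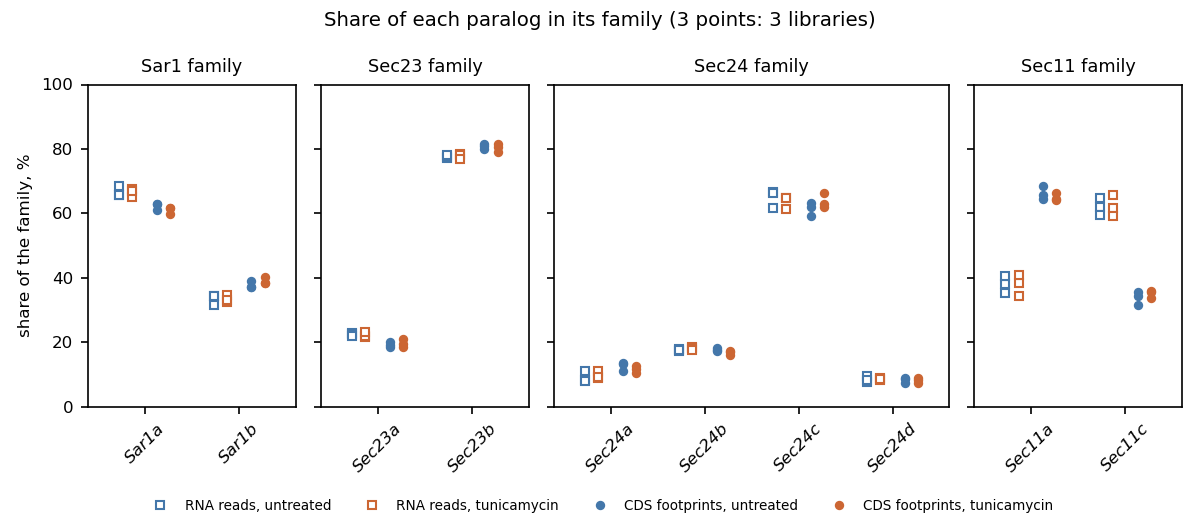
Share of each paralog in the RNA reads (open squares) and CDS footprints (filled circles) of its family, in percent, 1 point per library, untreated in blue and tunicamycin in orange. Sec23b holds about 77% to 82% in every library, and Sec11a is the smaller share of RNA reads and the larger share of footprints.

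Promoter sequence bears on these genes because ATF6 and XBP1, transcription factors of the unfolded protein response, bind the ER stress response element. RefSeq windows from 250 bases before to 50 after an annotated start were matched by symbol for 29 of the 38 genes (31 windows) and searched on both strands. The start used for a window can lie inside the gene's RefSeq span, as for Sec24d and Spcs2. The element ERSE (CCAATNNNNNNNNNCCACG) was in 0 of the 29, against 0.119% of all 32851 windows. ERSE-II (ATTGGNCCACG) was in 0 as well, against 0.0365%. The UPRE core TGACGTGG was in 2 of the 29, Sec24d and Sec23a, which is 6.90% beside 0.676% of all windows. The pentamer CCACG, which is part of the 3 other motifs, was in 20 of the 29 (69.0%), against 32.8% of windows. The shares of the 29 count genes with a match in any window, and the others count single windows. All 32851 windows were used, not matched in base composition or expression. Whether the 29 genes hold more of any motif was not tested. The stretches with the UPRE core in capitals are given for the genes that hold it, Sec24d on the plus strand and Sec23a on the minus strand. For Sec24d the stretch is chr3:123267436-123267495, with the core 26 to 19 nt before the start used for its window. That start lies inside the RefSeq span of Sec24d, which begins at chr3:123264801. For Sec23a the stretch is chr12:59011993-59012022, with the core beginning 6 nt past the start.
Sec24d: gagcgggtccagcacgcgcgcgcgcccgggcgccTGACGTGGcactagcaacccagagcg
Sec23a: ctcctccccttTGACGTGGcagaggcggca
RNA of Sec24d was 25.9, 21.5 and 23.8 CPM untreated and 24.6, 22.7 and 25.6 under tunicamycin (0.05 ± 0.09, edgeR adjusted p = 0.872). RNA of Sec23a was 22.9, 21.9 and 22.4, and 21.6, 22.6 and 25.1 (0.06 ± 0.08, 0.810). Both pairs of groups overlapped at 1.5 h.

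Other genes of the same routes were read from 3 lists. Tested in RNA were 24 genes of ER targeting and insertion, among them the EMC insertase and the GET pathway. A further 31 were of ER exit and 22 of the COPI coat and retrieval, and 0 of the 3 lists passed. At an unadjusted p under 0.05 there were 3, 6 and 6, beside 12.4% of all genes. DESeq2 called 0 genes of these lists. With the library number as a block, Emc4, an EMC subunit, passed in RNA at -0.26 ± 0.07 (edgeR adjusted p = 0.224 without the block). The block called 410 of the 10643 genes tested. In footprints 0 of 23, 30 and 21 passed, with 6, 3 and 0 at an unadjusted p under 0.05 (16.6% of all genes) and 0 called by DESeq2. In efficiency 0 of 23, 30 and 21 passed with edgeR, and 5, 4 and 1 had an unadjusted p under 0.05 (15.5% of all genes). The smallest p belonged to Cnih4, a cornichon cargo receptor (0.46 ± 0.11, edgeR adjusted p = 0.0541), Emc10 (0.42 ± 0.11, 0.0638) and Mia3, the TANGO1 protein of collagen export (-0.40 ± 0.10, 0.0638). DESeq2 called these 3, beside 392 of the 9218 genes tested over all. In the leader ratio, 7 of 11, 12 of 17 and 8 of 10 rose and 0 fell, against 64.4% of all genes, among them Bcap31 (1.40 ± 0.25), Bag6 (1.35 ± 0.28) and Tmed5 (1.63 ± 0.33).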

How the data were processed

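The submitters' processing notes name STAR, HTSeq, edgeR and the builds mm10 and GRCm38; the sources used here give no versions, counting options or rule for keeping harringtonine positions. The authors deposited raw counts of cycloheximide footprints per gene for leader, CDS and 3′ UTR, raw counts of RNA reads per gene, and raw counts at single harringtonine positions per strand. The sources also leave out how a read in 2 features was counted. Totals of kept positions are not depth.

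Counts were tested with edgeR 4.0.16 (R 4.3.3): TMM, filterByExpr (minimum count 10, minimum total 15), quasi-likelihood test, Benjamini-Hochberg adjustment over all features tested. Efficiency was the interaction of assay and treatment over 12 libraries; leader and 3′ UTR ratios were interactions with a library term. CPM uses the CDS footprints or RNA reads of a library. Scripts were tested on simulated data. RNA libraries of the same number were correlated in their deviations from the group means (r = 0.416, 0.312 and 0.191), and the numbers were taken to pair them. Untreated library 2 with tunicamycin library 3, of different numbers, reached 0.1905. Harringtonine columns of the same number gave 0.525, 0.174 and 0.123, but untreated 2 with tunicamycin 3 gave 0.426, so their pairing is uncertain. For CDS footprints the same-number values were 0.348, 0.0943 and 0.277, and the highest between different numbers was 0.024. Each same-number CDS value stood above that, so the CDS libraries may be paired as well, which was not settled. No main fit used the number as a block, and for footprints the block is given as an alternative fit.

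Every gene past the threshold was named, and, where fewer than 3 passed, those with the smallest p. The members and lists were chosen with earlier results of these data known. A marker of the planned erythroid list is not reported here. Alternatives changed scaling, filter, tool (DESeq2 1.42.0, limma 3.58.1) or block, or left out a library. Shares of paralogs were planned per codon; protein lengths were not used here, so undivided counts were compared. Promoter and start sequences are RefSeq's, GRCm38.p6.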

Additional observations from a re-analysis of the deposited data

How the results depend on the processing

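With the replicate block, that is, the library number as a term, 1 of the 38 genes passed in RNA (Sec63), 4 in CDS footprints (Spcs1, Srpr, Sec11c and Srp19) and 3 in efficiency (Spcs1, Srpr and Srp19). For footprints, whether libraries of the same number are paired was not settled. The block moved the counts over all genes from 16 to 410 in RNA, from 239 to 885 in footprints and from 129 to 830 in efficiency. With the replicate block 0 harringtonine sites of the 38 genes passed, and 5 against 0 over all genes. Of the 3 other lists, the block added 6 genes in footprints (Cnih4, Naca, Emc10 and Mmgt1 higher, Get4 and Emc1 lower) and 4 in efficiency (Cnih4, Emc10 and Mmgt1 higher, Mia3 lower). Leaving out 1 library at a time gave 0 passing genes in RNA, 1 to 2 in footprints, 0 to 2 in efficiency, 12 to 18 in the leader ratio and 0 in the 3′ UTR ratio; an arm with 2 libraries left shares the spread of the whole fit. Spcs1 passed in footprints under all 15 alternatives and in efficiency under 19 of 21 (highest adjusted p 0.0509, edgeR); the others left out untreated RNA library 2 or tunicamycin RNA library 3. Srpr passed in footprints under 11 of 15 and in efficiency under 13 of 21. Over all genes, DESeq2 called 114 in RNA and 392 in efficiency, no filter gave 122 in RNA, 573 in footprints and 31 against 9 in the 3′ UTR ratio, where limma voom and a minimum of 50 reads gave 0 and the block 21. Leaving out 1 library gave 3 to 26, 58 to 431, 20 to 296, 1910 to 3000 (3024 with all libraries) and 0 to 27 over all genes in RNA, footprints, efficiency, leader ratio and 3′ UTR ratio, and 0 to 4 harringtonine sites. No called result changed direction under these alternatives. Shares of paralogs per codon were not run. With 3 libraries a group, small changes are not detectable, and genes with few footprints (Srp9, Tmed2, Sec61g) rest on few reads.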
